A study of Solanum lycopersicum with 12 samples.

Results

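Abscisic acid metabolism and perception were followed in tomato stems through 4 genes of the 6120 listed in either of a pair of deposited expression tables. The genes were taken by identifier for breakdown, synthesis, perception and a phosphatase, namely CYP707A1 (Solyc04g078900.3), NCED2 (Solyc08g016720.1), PYL4 (Solyc03g095780.3) and a gene with a PPM-type phosphatase domain (Solyc06g051940.4). All 4 were read in all 12 libraries. The plants were Solanum lycopersicum of the variety Ailsa Craig, grown singly in pots at about 28 °C with 16 h of light and 8 h of dark. In the weighted groups a wooden clamp of 3 g hung from the tip of stems that were 4.5 to 5 cm tall, for 48 h, and control plants carried no clamp. Stems were taken either 6 h into the treatment or 10 days after it had ended, giving the groups control 6 h, weighted 6 h, control 10 days and weighted 10 days, with 3 libraries in each. The submitters describe the libraries as biological replicates and give no statement on how many plants each one holds.

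Abscisic acid is a plant hormone made from carotenoids and known for its part in water stress, seed dormancy and growth restraint. NCED enzymes cleave an epoxycarotenoid, the step that commits carbon to the hormone, and CYP707A enzymes hydroxylate the finished hormone and so start its breakdown. PYR/PYL/RCAR proteins such as PYL4 are soluble receptors that, once they hold the hormone, bind and block clade A type 2C protein phosphatases. Those phosphatases otherwise keep SnRK2 kinases switched off, so that a blocked phosphatase frees the kinases to phosphorylate bZIP transcription factors and ion channels.

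The members were selected on measured values. CYP707A1 and NCED2 stand only in the table for 6 h, and PYL4 and the phosphatase gene only in the table for 10 days, and these tables hold genes that the authors had picked for a difference with weight at that time. In the authors' deposited tables, every legible Q value of the 6 h table (2988 of 2988) and 908 of 909 in the 10 day table were under 0.05. In the authors' deposited tables PYL4 has a Q value of 0.0231 and the phosphatase gene one of 0.00889 at 10 days, and the Q values of the other 2 at 6 h are not legible. The weight difference that put a gene in its table is therefore given here as values with no test, and so is the difference between the weight effects at both times, which contains it. The tests are those of the weight effect at the other time and of the difference between ages. The age comparisons share 1 group of libraries with that selection. Age and collection cannot be told apart, since stems of each age were collected at their own time.

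Values are FPKM, a fragment count divided by transcript length and by the library's mapped total, as the authors deposited them, and levels of different genes can be set side by side on this scale. Fold changes and tests are from limma on log2(FPKM + 1), so that changes of low genes are understated, with p-values adjusted by the Benjamini-Hochberg method over all tested genes of a table. A gene was called at an adjusted p under 0.05. The read depth of the libraries is unknown. Control 10 days replicate 2 and weighted 10 days replicate 3 stood apart from their groups for several members, and the results that rest on them are given with and without them. In whole stems, fewer cells of a type and less RNA per cell cannot be told apart.

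Taking the hormone's turnover first, CYP707A1 was the member with the largest ratio of levels between weighted and control stems at 6 h. Its level was 2.02, 1.27 and 1.5 FPKM in the control 6 h libraries and 7.7, 5.57 and 8.99 FPKM in the weighted 6 h libraries. Every weighted library stood above every control library. The group means were 1.6 ± 0.384 and 7.42 ± 1.73 FPKM (SD, n = 3 each), a ratio of 4.64, and the log2 fold change was 1.69 (SE 0.18). This is the contrast that listed the gene, in a table where 99.3% of the tested genes were called in it, so nothing is read from it.

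At 10 days the gene stood far higher, and unevenly. Control stems held 11.67, 42.14 and 10.87 FPKM, and weighted stems 38.77, 38.07 and 13.58 FPKM. The second control library lay above all weighted libraries and the third weighted library lay close to the other 2 controls, so the groups overlapped. The means were 21.6 ± 17.8 FPKM in control and 30.1 ± 14.3 FPKM in weighted stems (SD, n = 3 each). The log2 difference with weight of 0.60 (SE 0.61, 95% interval -0.86 to 2.07) did not pass limma, with an adjusted p of 0.664. Leaving out control 10 days replicate 2 gave a log2 difference of 1.21 (adjusted p = 0.259 in limma), and leaving out weighted 10 days replicate 3 gave 1.08 (adjusted p = 0.395). Among the 4656 genes of the 6 h table tested at 10 days, 0 were called by limma (0%), with 767 at an unadjusted p under 0.05.

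The age difference of CYP707A1 passed the test in both kinds of stem. In control stems it rose by 2.85 on the log2 scale (SE 0.49, adjusted p = 0.00223), from a mean of 1.6 to 21.6 FPKM, or 13.5 times. In weighted stems it rose by 1.77 (SE 0.40, adjusted p = 0.00465), from 7.42 to 30.1 FPKM. All 10 day libraries stood above all 6 h libraries of the same treatment. The rise was 2.25 in control stems without control 10 days replicate 2 and 2.25 in weighted stems without weighted 10 days replicate 3. In the control comparison 65.8% of the tested genes of the 6 h table were called, 27.1% higher and 38.7% lower at 10 days. In weighted stems 79.3% were called, 32.1% higher and 47.2% lower. After scaling by median ratios, 49.6% of the called genes were higher in control and 50.2% in weighted stems, against 41.2% and 40.5% as deposited. Such scaling makes the median ratio between libraries nearly even, so a near even split follows from it. The order of its levels was weighted 10 days, control 10 days, weighted 6 h and control 6 h, in which the first and second overlapped and the others did not.

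NCED2, on the synthesis side, was high in 1 group only. Its levels were 6.46, 5.18 and 7.13 FPKM in control 6 h, 10.25, 10.95 and 16.9 FPKM in weighted 6 h, 6.36, 6.82 and 6.78 FPKM in control 10 days, and 6.87, 6.9 and 6.65 FPKM in weighted 10 days libraries. The 3 weighted 6 h libraries stood above the other 9, whose ranges overlapped. The means at 6 h were 6.26 ± 0.991 FPKM in control and 12.7 ± 3.65 FPKM in weighted stems (SD, n = 3 each), 2.03 times as high, with a log2 fold change of 0.89 (SE 0.20) that has no test because it listed the gene.

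At 10 days NCED2 was at nearly the same level in both groups, 6.65 ± 0.255 FPKM in control and 6.81 ± 0.137 FPKM in weighted stems (SD, n = 3 each). The log2 difference was 0.03 (SE 0.10), its 95% interval ran from -0.22 to 0.28, and the adjusted p in limma was 0.912. In control stems the age difference was 0.09 (95% interval -0.25 to 0.42, adjusted p = 0.608 in limma). In weighted stems NCED2 fell with age by 0.78 on the log2 scale (SE 0.18, adjusted p = 0.00544 in limma), to 0.536 of the mean at 6 h. That comparison starts from the weighted 6 h libraries in which the gene had been picked for being high.

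**Figure D1:**
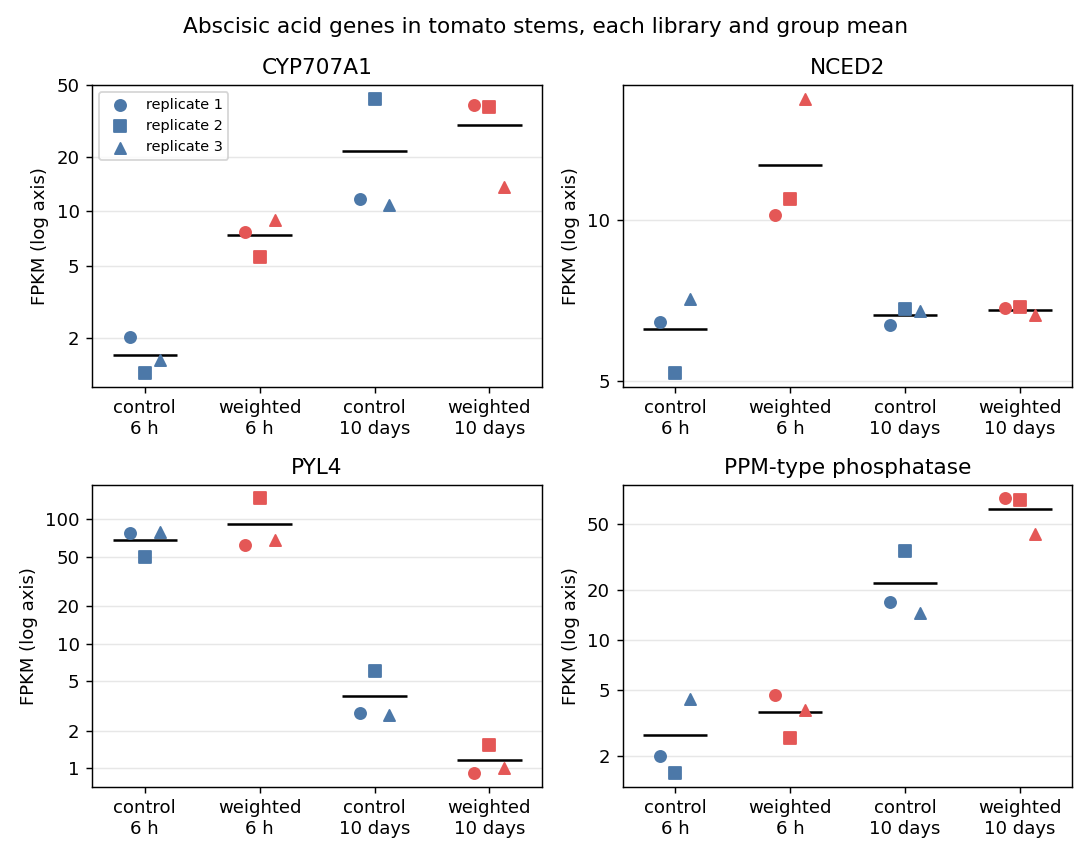
FPKM of the 4 genes in each of the 12 libraries on log axes, with blue symbols for control and red symbols for weighted stems, 1 symbol shape per replicate number, and a black line at each group mean. CYP707A1 and the phosphatase gene stand higher at 10 days than at 6 h, PYL4 stands lower, and NCED2 stands apart only in the weighted 6 h libraries.

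Set against each other within a library, the breakdown gene gained on the synthesis gene. The FPKM ratio of CYP707A1 to NCED2 lay between 0.21 and 0.313 in control 6 h, between 0.509 and 0.751 in weighted 6 h, between 1.6 and 6.18 in control 10 days and between 2.04 and 5.64 in weighted 10 days libraries. NCED2 was thus the more abundant transcript in all 6 libraries at 6 h and CYP707A1 in all 6 libraries at 10 days. Weighted and control ranges did not overlap at 6 h and overlapped at 10 days. The numerator and denominator at 6 h are the values that listed both genes.

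The other tested genes on the synthesis list in the 6 h table were lower, not higher, in weighted stems at 6 h. Of 7 genes on that list in the 6 h table, 5 passed the filter on low values. Of these, NCED2 was higher in weighted stems and 4 were lower, in the contrast that listed all of them. Of all genes of that table called in this contrast, 48.7% were higher. The median log2 fold change was -0.40, beside -0.25 over all tested genes. Zeaxanthin epoxidase (Solyc02g090890.4), which makes the epoxycarotenoids upstream of NCED enzymes, had a mean of 36.7 FPKM in control and 21.4 FPKM in weighted 6 h stems. A gene of the violaxanthin de-epoxidase family (Solyc04g051610.3), which works in the opposite direction, had means of 3.93 and 2.73 FPKM. The 2 other genes, matched by identifier or domain to a neoxanthin synthesis factor (Solyc02g063170.3) and to a xanthoxin dehydrogenase type (Solyc03g113300.4), had log2 fold changes of -0.31 and -0.75. The 2 genes under the filter went opposite ways, Solyc01g005500.3 with means of 0.263 FPKM in control and 1.03 FPKM in weighted 6 h stems and Solyc01g090660.3 with 0.4 and 0.137 FPKM. The latter is deposited as a carotenoid cleavage dioxygenase 7-like gene, not as an NCED gene. With age, 3 of the 5 rose and 0 fell in control stems, and 3 rose and 1, NCED2, fell in weighted stems, beside the shares over all tested genes of 27.1% higher and 38.7% lower in control and 32.1% and 47.2% in weighted stems. The epoxidase gene rose by 0.90 (SE 0.11, adjusted p = 0.000634 in limma) in control and by 1.90 (SE 0.12, adjusted p = 1.03e-05) in weighted stems. The synthesis list had 1 further gene, Solyc09g074410.4, in the 10 day table. It was not called with weight at 6 h (log2 difference -0.27, adjusted p = 0.153 in limma) or with age in either kind of stem. No gene of the breakdown list other than CYP707A1 was in the tables.

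On the perception side, PYL4 was an abundant transcript in young stems and stood near 1 FPKM in older weighted ones. It was read at 77.18, 49.44 and 79.83 FPKM in control 6 h libraries and at 61.75, 147.48 and 67.91 FPKM in weighted 6 h libraries. The second weighted library stood well above the other 5, and the other 2 weighted libraries lay inside the control range. The means of 68.8 ± 16.8 and 92.4 ± 47.8 FPKM (SD, n = 3 each) differed by 0.34 on the log2 scale (SE 0.35, 95% interval -0.51 to 1.18), which did not pass limma (adjusted p = 0.491). Without weighted 6 h replicate 2 the log2 difference was -0.05. Of the 1085 genes of the 10 day table tested at 6 h, 27.4% were called. That share rests on single libraries, since the 297 calls became 86 to 344 with 1 library left out, the lowest without weighted 6 h replicate 1.

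At 10 days PYL4 was at 2.8, 6.06 and 2.66 FPKM in control and at 0.92, 1.54 and 1.01 FPKM in weighted stems. All 3 weighted libraries were below all 3 controls, and the second control library was again apart from the other 2. The means were 3.84 ± 1.92 and 1.16 ± 0.335 FPKM (SD, n = 3 each), 3.31 times lower in weighted stems, with a log2 difference of -1.11 (SE 0.26) on the scale with 1 FPKM added. The log2 difference was -0.80 without control 10 days replicate 2 and -1.06 without weighted 10 days replicate 3. This contrast listed the gene and has no test. In it 99.7% of the tested genes of the 10 day table were called.

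PYL4 had the largest age difference of the 4 genes. It fell by 3.89 on the log2 scale in control stems (SE 0.30, adjusted p = 2.72e-05 in limma), and the mean at 10 days was 17.9 times lower. In weighted stems it fell by 5.33 (SE 0.31, adjusted p = 2.3e-06), a mean 79.7 times lower. That comparison ends in the weighted 10 days libraries in which the gene had been picked for being low. Every 10 day library was below every 6 h library, and the only groups of neighbouring level that overlapped were the 2 at 6 h. Without control 10 days replicate 2 the log2 difference in control stems was -4.20. In control stems 73.1% of the tested genes of the 10 day table were called with age, 41.7% higher and 31.4% lower, and 76% in weighted stems, 48.2% higher and 27.8% lower. Of the called genes in weighted stems 63.5% were higher, against 49.9% after scaling libraries by median ratios, a near even split that follows from the scaling. PYL4 fell under that scaling too.

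The phosphatase gene ran the other way. It was read at 2.02, 1.59 and 4.41 FPKM in control 6 h and at 4.66, 2.59 and 3.82 FPKM in weighted 6 h stems, ranges that overlapped. The log2 difference of 0.40 (SE 0.30, 95% interval -0.31 to 1.12) did not pass limma (adjusted p = 0.336). It was 0.72 without control 6 h replicate 3 (adjusted p = 0.0524), 0.19 without control 6 h replicate 2 (adjusted p = 0.684) and 0.26 without weighted 6 h replicate 1 (adjusted p = 0.629). At 10 days it was read at 17.08, 34.28 and 14.58 FPKM in control and at 71.31, 70 and 43.52 FPKM in weighted stems. All 3 weighted libraries stood above the highest control library, which was again the second. The means were 22 ± 10.7 and 61.6 ± 15.7 FPKM (SD, n = 3 each), 2.8 times as high with weight, and the log2 difference of 1.51 (SE 0.32) has no test because it listed the gene. It was 1.87 without control 10 days replicate 2 and 1.74 without weighted 10 days replicate 3.

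With age the phosphatase gene rose by 2.63 on the log2 scale in control stems (SE 0.37, adjusted p = 0.000585 in limma) and by 3.73 in weighted stems (SE 0.23, adjusted p = 3.15e-06). The means were 8.24 and 16.7 times as high at 10 days. The comparison in weighted stems ends in the weighted 10 days libraries in which the gene had been picked for being high. Without control 10 days replicate 2 the rise in control stems was 2.27, and without weighted 10 days replicate 3 that in weighted stems was 3.96. Its deposited annotation places it in the plant hormone signal transduction pathway, as for clade A phosphatases, but also gives its model pyruvate kinase domains. Reads of 2 genes may be joined in its value, which was not tested. The name PYL4 rests in the deposited annotation on a match to a potato protein, while CYP707A1 and NCED2 are named from tomato entries.

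**Figure D2:**
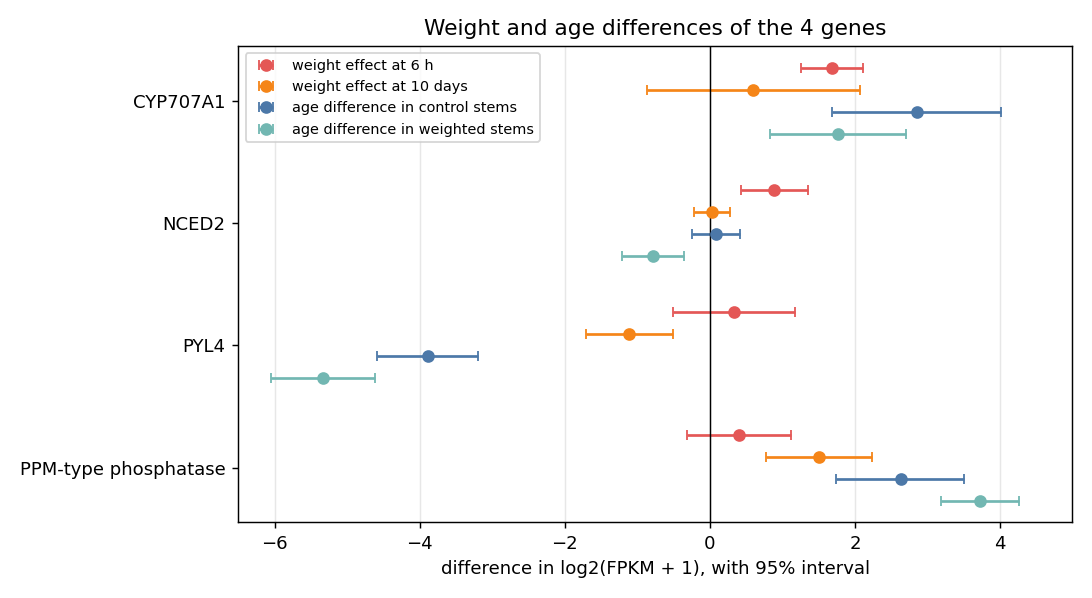
Differences in log2(FPKM + 1) for the 4 genes with 95% intervals from limma, for weighted minus control stems at 6 h and 10 days and for 10 days minus 6 h in control and weighted stems. PYL4 lies at -3.89 and -5.33 in the age comparisons and the phosphatase gene at 2.63 and 3.73, while NCED2 lies near 0 in the 10 day weight comparison and in control stems with age.

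The FPKM ratio of the phosphatase gene to PYL4 was below 1 in every library at 6 h and above 1 in every library at 10 days. It lay between 0.0262 and 0.0552 in control 6 h, between 0.0176 and 0.0755 in weighted 6 h, between 5.48 and 6.1 in control 10 days and between 43.1 and 77.5 in weighted 10 days libraries. The control 10 days libraries were close together on this ratio although replicate 2 held the highest level of both genes. The split between weighted and control stems at 10 days comes from the values that listed both genes.

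**Figure D3:**
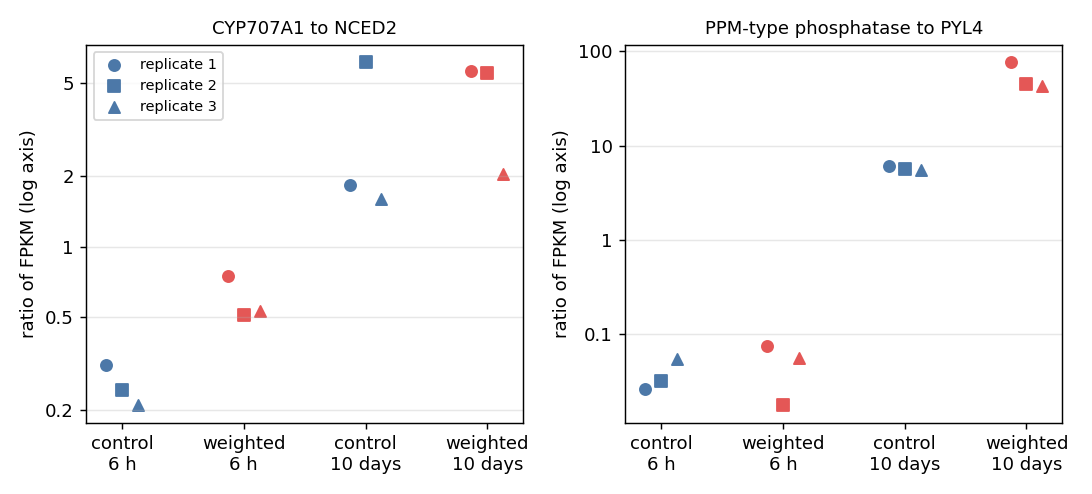
Ratio of FPKM within each library, on log axes, for CYP707A1 over NCED2 at left and for the phosphatase gene over PYL4 at right, with blue for control and red for weighted stems and 1 symbol shape per replicate number. The left ratio passes 1 between 6 h and 10 days, and the right ratio goes from at most 0.0755 at 6 h to at least 5.48 at 10 days.

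The difference between the weight effects at both times, 10 days minus 6 h, was estimated over all 12 libraries and has no test. It was -1.08 (SE 0.70) for CYP707A1, -0.87 (SE 0.24) for NCED2, -1.44 (SE 0.48) for PYL4 and 1.10 (SE 0.49) for the phosphatase gene, on the log2 scale. For CYP707A1 it was -0.48 without control 10 days replicate 2 and -0.61 without weighted 10 days replicate 3.

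PYL4 was 1 of 5 genes of the receptor family in the tables, and 4 of the 5 fell with age in both kinds of stem. All 4 genes of this family in the 10 day table fell, with a median log2 difference of -2.00 in control stems, beside 0.16 over all tested genes, and of -2.74 in weighted stems, beside 0.25. Of all tested genes of that table, 31.4% were called lower with age in control stems and 27.8% in weighted stems. Solyc10g076410.1 went from a mean of 44 FPKM in control 6 h to 9.57 FPKM in control 10 days stems, a log2 difference of -2.10 (SE 0.16, adjusted p = 3.14e-05 in limma). Solyc06g050500.2 went from 38.3 to 9.92 FPKM (log2 difference -1.91, SE 0.29) and Solyc06g061180.2 from 63.4 to 28.9 FPKM (-1.11, SE 0.09). In weighted 10 days stems the same 3 genes stood at 3.51, 4.48 and 21 FPKM. All 4 were lower in weighted than in control stems at 10 days, the contrast that listed them. At 6 h, 0 of the 4 was called by limma in the 10 day table (1085 genes tested, 27.4% called and 464 at an unadjusted p under 0.05). Of the 4, Solyc10g076410.1 is also in the 6 h table, listed there for being lower with weight at 6 h, with 38.4 to 50.54 FPKM in control and 26.63 to 38.34 FPKM in weighted libraries and a log2 difference of -0.49. PYL4 had the highest mean of the 5 genes in control 6 h stems, though its libraries overlapped those of Solyc06g061180.2, and the lowest mean at 10 days.

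The fifth receptor gene, Solyc08g082180.3, was in the 6 h table and did the reverse. It rose with age by 2.39 in control stems (SE 0.56, adjusted p = 0.00882 in limma) and by 1.45 in weighted stems (SE 0.10, adjusted p = 1.56e-05). Its control 10 days libraries were spread from 16.55 to 93.89 FPKM, while the weighted ones lay between 39.4 and 42.69 FPKM. Summed over the 5 genes, receptor transcripts had a mean of 222 FPKM in control 6 h, 231 FPKM in weighted 6 h, 106 FPKM in control 10 days and 71 FPKM in weighted 10 days stems. Without control 10 days replicate 2, or in weighted stems without weighted 10 days replicate 3, 4 of 5 still fell and 1 rose.

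The type 2C phosphatases split by annotation, a split made after the values were seen. Of 21 genes of this family in the tables, 5 are annotated in plant hormone signal transduction, the member included. Of these 5, 4 were tested, and all 4 rose with age in both kinds of stem. For the 3 in the 6 h table the median log2 difference was 4.89 in control and 5.87 in weighted stems, beside -0.18 and -0.24 over all tested genes, of which 27.1% and 32.1% were called higher. In the table of the member, the shares called higher were 41.7% and 48.2%. Solyc03g007230.4 went from a mean of 6.31 ± 1.76 FPKM in control 6 h to 386 ± 36.8 FPKM in control 10 days stems (SD, n = 3 each), a log2 difference of 5.75 (SE 0.19, adjusted p = 1.1e-05 in limma), and rose by 7.23 (SE 0.12) in weighted stems. In control stems Solyc03g096670.3 went from 7.56 to 256 FPKM (log2 difference 4.89, SE 0.17) and Solyc06g076400.3 from 9.95 to 58.8 FPKM (2.48, SE 0.19). The same 3 genes had lower means in weighted than in control stems at 6 h, of 1.73, 5.32 and 3.71 FPKM, in the contrast that listed them. The member phosphatase had a mean of 3.69 FPKM in weighted and 2.67 FPKM in control 6 h stems, which did not pass limma (adjusted p = 0.336). It is not in the 6 h table, so it was not listed for a 6 h difference, and no contrast with the 3 is read from this. The fifth gene, Solyc08g065670.4, was too low to be tested and did not stand higher with age, at 0.23 to 0.46 FPKM in control 6 h and 0.02 to 0.11 FPKM in control 10 days libraries.

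The phosphatases without that annotation were called at shares near the background. Of the 13 in the 6 h table, 4 rose, 6 fell and 3 were not called with age in control stems, beside 27.1% higher and 38.7% lower over all tested genes, with a median log2 difference of -0.47, beside -0.18 over all tested genes. The lowest of them at 10 days in weighted stems, Solyc10g086490.2 and Solyc01g065700.3, had means of 0.127 and 0.187 FPKM. Summed over the 5 annotated genes, phosphatase transcripts had a mean of 26.8 FPKM in control 6 h, 14.5 FPKM in weighted 6 h, 722 FPKM in control 10 days and 927 FPKM in weighted 10 days stems. Over all 21 phosphatase genes the sums had means of 364, 413, 1070 and 1180 FPKM in the same order. The receptor sum was above that of the 5 annotated phosphatases in every library at 6 h, but below that of all 21, and at 10 days it was below both. These sums cover only genes listed for a weight difference, and family members outside the tables are not in them.

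**Figure D4:**
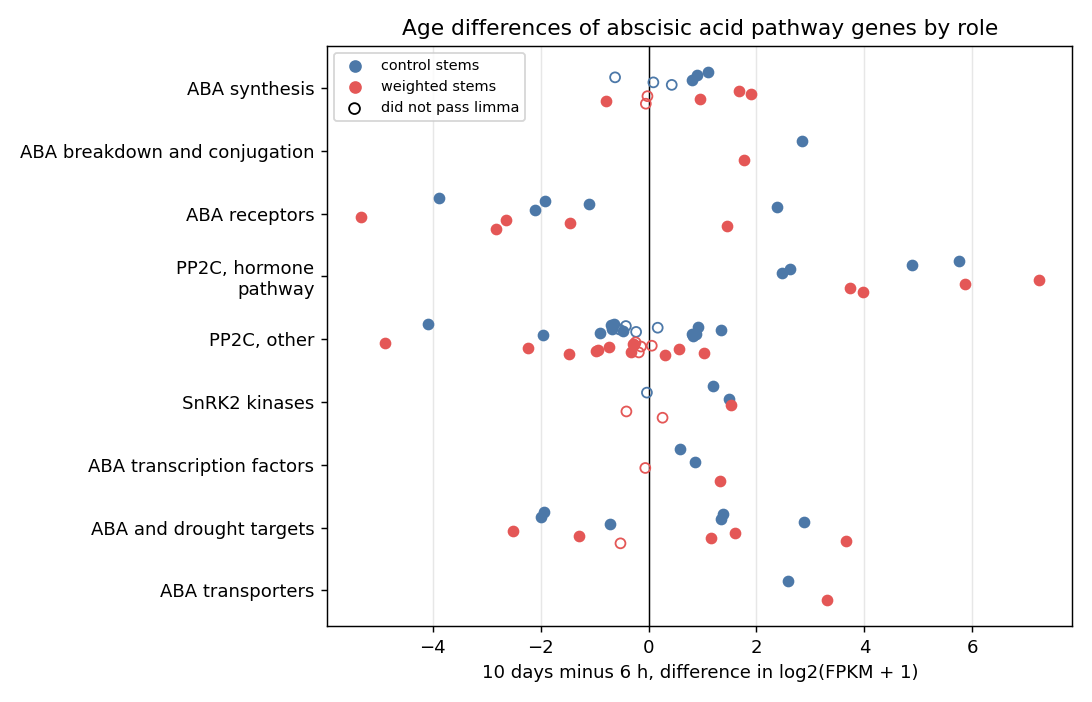
Differences in log2(FPKM + 1) between 10 days and 6 h for genes of the abscisic acid lists, 1 point per gene in control stems (blue) and in weighted stems (red), arranged by role, with open points for genes that limma did not call. There, 4 of 5 receptor genes lie left of 0 and the 4 tested phosphatase genes annotated in plant hormone signal transduction lie right of it.

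Downstream of the phosphatases, 3 SnRK2 kinase genes were in the 6 h table, 2 higher and 1 lower in weighted stems in the contrast that listed them. Solyc08g077780.3 had means of 15.4 and 50.2 FPKM in control and weighted 6 h stems, and in control stems it rose with age by 1.49 (SE 0.17, adjusted p = 0.000392 in limma). In weighted stems its age difference of 0.26 was not called (adjusted p = 0.305). SRK2I (Solyc02g090390.4), named after a kinase of Arabidopsis abscisic acid signalling, had means of 17.6 and 29.4 FPKM at 6 h. It did not pass with age in control stems (-0.03, adjusted p = 0.905 in limma) or in weighted stems (-0.41, adjusted p = 0.213). The kinase gene lower with weight, Solyc01g108280.3, rose with age by 1.20 in control stems (SE 0.11, adjusted p = 0.000155 in limma). In weighted stems it rose by 1.53 (SE 0.09, adjusted p = 6.75e-06). Of all tested genes, 27.1% and 32.1% were called higher with age in control and weighted stems. Both bZIP genes of the 10 day table rose with age in control stems, Solyc11g044560.3 by 0.87 and Solyc10g081350.2 by 0.59, in a comparison where 41.7% of the tested genes were called higher. In weighted stems the first rose by 1.33 and the second was not called (-0.06, adjusted p = 0.501).

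Genes listed as targets of the hormone or of drought were divided. Of the 6, 5 are named only for a LEA_2 or WHy domain, and whether they answer to the hormone was not tested. Of 6 tested in the 6 h table, 3 rose and 3 fell with age in control stems, where 27.1% of all tested genes were called higher and 38.7% lower, with a median log2 difference of 0.32, beside -0.18 over all tested genes. The HVA22-like gene Solyc11g010930.2, of a family first known from abscisic acid treated barley, rose from 5.68 to 48.8 FPKM (log2 difference 2.88, SE 0.17). A gene for an ABCG22-like transporter (Solyc01g006720.4), related to an Arabidopsis protein of stomatal control, rose from 13.5 to 85.8 FPKM (log2 difference 2.58, SE 0.19). The 5 genes with a LEA_2 or WHy domain also differed both ways with weight at 6 h, the contrast that listed them. Solyc08g065140.1, Solyc11g068550.1 and Solyc06g074040.2 had means of 176, 41.6 and 21.5 FPKM in control and of 107, 24.6 and 15.7 FPKM in weighted 6 h stems. Solyc04g078750.3 and Solyc10g150145.1 stood higher with weight, at 394 and 181 FPKM against 247 and 141 FPKM.

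The highest level of any listed gene was that of TAS14 (Solyc02g084850.3), a tomato dehydrin known to be induced by abscisic acid and salt. Its digits are shifted in the deposited 6 h table and were restored by reading 2 decimals per value, so it was kept out of every test. Read that way it stood between 11.71 and 18.52 FPKM in control 6 h, between 3.94 and 12.43 FPKM in weighted 6 h, between 10528.13 and 11136.54 FPKM in control 10 days and between 8318.99 and 11637.38 FPKM in weighted 10 days libraries. The log2 ratio of the control means, 10 days over 6 h, was 9.46. The authors' deposited ratio is damaged as well, and reads 9.33 if its first digit is taken as the whole part.

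Only genes with a product name other than uncharacterized, unknown or a domain were searched for likeness, as a description over libraries that share their groups. Those most like each member over the 12 libraries were found by Pearson's r of log2(FPKM + 1) within its table. For CYP707A1 they were a galactinol-sucrose galactosyltransferase (Solyc07g065980.3, r = 0.974), a cyclic nucleotide-gated channel 2-like gene (Solyc02g088560.4, r = 0.965) and an exostosin family gene (Solyc08g066690.4, r = 0.963). For NCED2 they were a transcription factor (Solyc06g009510.1, r = 0.967), the extracellular ribonuclease LE (Solyc05g007950.4, r = 0.955) and a SWEET sugar transporter (Solyc03g097560.3, r = 0.933). Each of the last 3 was high in weighted 6 h stems alone, the first at a mean of 21 FPKM against at most 2.89 FPKM in the other groups. For PYL4 they were a CLAVATA1-named receptor kinase (Solyc04g076990.3, r = 0.992), the subtilase SBT1.7 (Solyc02g092670.1, r = 0.990) and a receptor-like kinase (Solyc10g006870.1, r = 0.986). For the phosphatase gene they were an ent-kaurene synthase (Solyc03g124068.1, r = 0.984), an oleosin (Solyc12g010920.2, r = 0.981) and a pyrroline-5-carboxylate dehydrogenase (Solyc06g071000.3, r = 0.972). With unnamed genes included, r was 0.95 or more for 19 genes with CYP707A1, 2 with NCED2, 38 with PYL4 and 38 with the phosphatase gene.

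Marker genes of some tissues also differed between the ages. The sums given are over genes of the 6 h table, which were listed for a difference with weight at 6 h. Their weight differences at 6 h are therefore values with no test. Xylem and secondary wall markers of the 6 h table (6 genes) summed to 137 to 171 FPKM in control 6 h, 88.2 to 111 FPKM in weighted 6 h, 336 to 381 FPKM in control 10 days and 349 to 383 FPKM in weighted 10 days libraries. The single phloem marker lay at 20 to 22.5, 28.4 to 32.6, 14.5 to 16.9 and 18.6 to 21.1 FPKM in the same order. Trichome markers (8 genes) were at 70.2 to 80.6, 26.9 to 32.5, 9.89 to 29.2 and 24.7 to 30.5 FPKM, and wounding genes (49) at 3000 to 3360 FPKM in control 6 h, 1980 to 2390 FPKM in weighted 6 h and 892 to 1050 FPKM at 10 days. Photosynthetic genes (54, with 13 more not read) were at 12300 to 16700 FPKM in control 6 h, 6880 to 8170 FPKM in weighted 6 h, 11900 to 13600 FPKM in control 10 days and 10300 to 12200 FPKM in weighted 10 days libraries, and cuticle genes (37, with 5 more not read) between 1320 and 1830 FPKM in all groups. No marker gene was at 0 in every library, and the part of tissue make-up in the age and weight differences was not tested.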

How the data were processed

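Stem RNA of 12 libraries in 4 groups of 3 was analysed. The authors deposited FPKM values for all libraries in 2 tables, with log2 ratios and Q values of their own. Per the labels' protocols, reads were aligned with HISAT to a genome and with Bowtie2 to genes. The sources used here do not state versions, build, strand handling or the treatment of reads shared by copies.

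The 6 h table has tabs in place of decimal marks and the reverse, which was undone, and 95 of 5346 genes whose digits had shifted were left out. A zero after the decimal mark was lost in 54 of 71 such values at 100 FPKM or more and in 0 of 305 under 50 FPKM, the range of CYP707A1 and NCED2. Ratios of means at 10 days were compared with the authors' deposited log2 ratios across genes. Where a deposited ratio was damaged, its first digit was taken as the whole part. In the restored 6 h table r was 0.9982 for 4587 genes, after 5 genes more than 0.5 from the authors' ratio had been left out. Those 5 are among the 95. In the 10 day table r was 0.9996 for 1075 genes. Only 8.55% and 7.57% of low values lay within 0.005 FPKM of a whole multiple, so reads were not recovered and depth is unknown.

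log2(FPKM + 1) was fitted with limma 3.58.1 in R 4.3.3 (empirical Bayes with trend, two-sided), keeping genes that reached 1 FPKM in 3 or more libraries, after a test on simulated data. The smallest exact permutation p for 3 libraries against 3 is 0.1. Alternatives were pseudocounts of 0.1 and 0.5, no filter, median-ratio scaling, a replicate block, and leaving out each library. The members, lists and tests were chosen with earlier results of these data known. Genes named here were all members, up to 4 genes of each list by size of the 6 h difference, and the 3 genes with a product name most like each member. Receptors and annotated phosphatases beyond these were named after their values were seen. Age fits over the 10 day table were added after seeing the data. Gene names are those of the deposited tables. Replicate numbers were checked for pairing and were not used as such.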

Additional observations from a re-analysis of the deposited data

Results flagged for a closer look

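Of 47 different genes in the abscisic acid lists, 3 had all 3 weighted libraries above the controls at 6 h and all 3 below them at 10 days. The share of all genes in the tables with this pattern was not computed, so the count is not read as a trait of the lists. On the log2 scale, the 2C-type phosphatase gene Solyc01g111730.3 differed with weight by 0.39 at 6 h and by -0.47 at 10 days. The PPM-type phosphatase gene Solyc05g055790.4 differed by 0.28 and by -0.50, and the bZIP gene Solyc10g081350.2 by 0.28 and by -0.37. Neither of these last 2 passed limma at 6 h (adjusted p = 0.0982 and 0.0699). The difference between the times was not tested, because each gene had been listed for its weight effect at 1 of them or at both.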

How the results depend on the processing

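The age differences of CYP707A1, PYL4 and the phosphatase gene, and that of NCED2 in weighted stems, kept their direction and their call under every alternative run. With a pseudocount of 0.1 the 6 h weight difference of CYP707A1 was 2.14 and the 10 day weight difference of PYL4 was -1.58 on the log2 scale. The small differences of NCED2 turned sign, to -0.02 with weight at 10 days under median-ratio scaling and to -0.03 with age in control stems without control 6 h replicate 2 (range over left-out libraries -0.03 to 0.17). The 6 h difference of PYL4 ranged from -0.05, without weighted 6 h replicate 2, to 0.57. Genes of the 6 h table called at 10 days numbered 4 under median-ratio scaling and 0 to 2 with a library left out. Genes of the 10 day table called at 6 h, 297 of 1085, numbered 87 with the replicate block and 86 to 344 with a library left out, with 91 and 115 without control 6 h replicates 1 and 2 and 86, 189 and 153 without weighted 6 h replicates 1, 2 and 3. In every comparison at least 1 pair of same-numbered libraries did not deviate together (6 h table at 6 h, r = -0.358, -0.289 and -0.038). With weight at 10 days the libraries numbered 2 did so, with r = 0.555 in the 6 h table and 0.307 in the 10 day table. The numbers were not taken to pair the samples, and this check cannot settle whether they do. Median-ratio scaling moved the median log2 difference of all genes by 0.166 and 0.23 in the age comparisons of the 6 h table, by -0.128 and -0.236 in those of the 10 day table, and by -0.207 with weight at 10 days in the latter. Both tables hold selected genes, so p-values are adjusted over those genes alone, and the unknown depth leaves levels near 1 FPKM, as for PYL4 in weighted stems at 10 days, without a counting error.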
